A study of Mus musculus with 8 samples.

Results

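A group of 10 genes that mark the cells around blood vessels was followed in 3 mouse lines derived from epithelioid hemangioendothelioma (EHE), a cancer whose cells resemble those lining blood vessels. They are the contractile genes Acta2, Tagln, Myh11 and Cnn1, the pericyte genes Cspg4, Rgs5 and Notch3, and the stromal and growth factor receptor genes Cd248, Pdgfrb and Pdgfra. They were taken from a list of pericyte, smooth muscle and stromal genes by matching the Ensembl identifiers of the count table to mouse symbols, which found 10 of 10 among 55401 identifiers. All 10 passed the filter on low counts. Polyadenylated RNA was read from 2 libraries of EHE26, 3 of EHE17 and 3 of EHE6, called here by line and replicate number. The labels give the lines no genotype, treatment, passage or tissue of origin beyond the name of the tumour, and they do not say that replicates were separate cultures, so the p-values reflect how much these libraries vary, which may be technical. Each line is compared with each other line, since the labels state no further question.

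Mural cells wrap the endothelial tube. Smooth muscle cells surround arteries and veins and contract through smooth muscle actin and myosin, while pericytes sit on capillaries and share the basement membrane with the endothelium. Endothelial cells release PDGF-B, which recruits pericytes through the receptor PDGFR-beta, and fibroblast-like stromal cells carry PDGFR-alpha. Counts came from whole cultures, so fewer cells of a type and less RNA per cell cannot be told apart.

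Levels are given as CPM, read counts scaled to a common library total with TMM factors, and levels of different genes are compared only per kilobase of exon (RPKM). Total counts ran over the 8 libraries between 44620965 and 96237665. The word called is used of genes with an edgeR quasi-likelihood adjusted p below 0.05 and a log2 fold change of 1 or more in either direction. The libraries did not group by line alone. Principal component 1, with 56.2% of the variance, had scores of 126 and 148 in EHE26 replicates 1 and 2, 41.7 in EHE17 replicate 3 and 128 in EHE6 replicate 3. It had -114 and -103 in EHE17 replicates 1 and 2, and -106 and -122 in EHE6 replicates 1 and 2. The libraries with negative scores are called the first set and those with positive scores the second set. EHE26 has no library in the first set, so for EHE26 the line and the set cannot be told apart except within the second set, where EHE17 and EHE6 have 1 library each and the spread comes from the EHE26 pair alone. All 3 lines carried transcripts of the endothelial genes Pecam1 and Cdh5. Pecam1, an endothelial adhesion molecule, was at 216 RPKM in EHE26, 252 in EHE17 and 232 in EHE6. Cdh5, VE-cadherin, was at 475, 686 and 779 RPKM in the same order of lines. Cdh5 in EHE6 replicate 3 differed from the mean of replicates 1 and 2 by -2.04 on the log2 CPM scale. In EHE26 against EHE17 the log2 fold change was -0.22 for Pecam1, -0.53 for Cdh5, -0.46 for Erg and -2.96 for Tie1. Sox17 had no read in EHE26. Over an endothelial list of 18 genes that includes all of these, the median log2 fold change was -1.71 in EHE26 against EHE17 (16 of 18 negative). It was -1.59 in EHE26 against EHE6 (18 of 18 negative) and -0.09 in EHE17 against EHE6, with no gene of the list called in any comparison.

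Against Pecam1 and Cdh5 most of the 10 marker genes were low. Acta2 had the highest mean per kilobase, at 21.7 RPKM in EHE26, 11.2 in EHE17 and 143 in EHE6. The genes that mark differentiated smooth muscle most narrowly were near the bottom. Myh11 was at 0.0464 RPKM in EHE26, 0.0826 in EHE17 and 0.111 in EHE6, and Cnn1 at 0.0202, 0.0138 and 0.160 RPKM in that order. Cd248 was called higher in EHE26 than in EHE17 and lower in EHE17 than in EHE6, and Cspg4 was called higher in EHE26 than in EHE17. Of all 18882 tested genes, edgeR called 1.08% in EHE26 against EHE17, 1.26% in EHE26 against EHE6 and 0.143% in EHE17 against EHE6. The other 8 genes were not called in any comparison, and several moved by large factors between replicates of a single line.

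**Figure D1:**
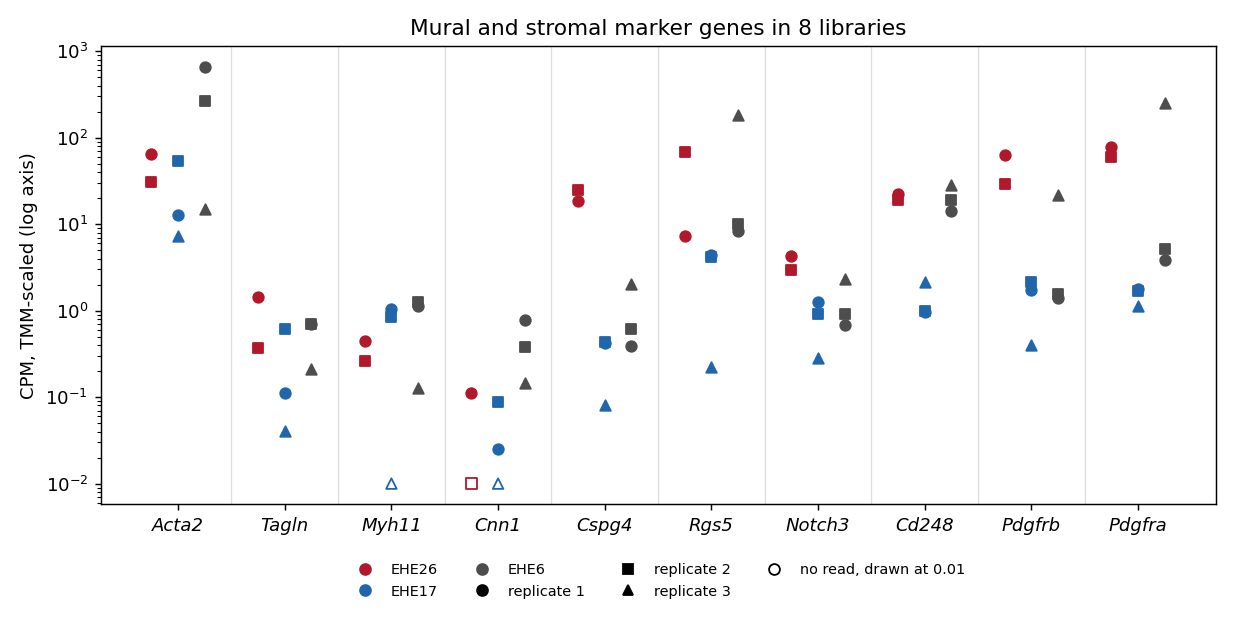
CPM of the 10 genes in each library on a log axis, coloured by line and shaped by replicate number; open symbols mark libraries with no read, drawn at 0.01 CPM. Cd248 in EHE17 lies between 0.969 and 2.17 CPM, under all libraries of EHE26 and EHE6, while Pdgfra in EHE6 spans 3.87 to 252 CPM.

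Acta2 (ENSMUSG00000035783, chromosome 19, 34241090 to 34255590, minus strand of GRCm38) encodes alpha smooth muscle actin, the thin filament of contractile mural cells and of activated fibroblasts. EHE26 replicates 1 and 2 had 64.6 and 30.7 CPM. EHE17 replicates 1, 2 and 3 had 12.6, 54.3 and 7.20 CPM, and EHE6 replicates 1, 2 and 3 had 659, 268 and 15.1 CPM. The lines overlapped in every pair: EHE17 replicate 2 lay between the EHE26 libraries, and EHE6 replicate 3 fell among the libraries of EHE17 and below both of EHE26. The log2 fold change was 0.95 ± 1.26 (SE) for EHE26 against EHE17 (edgeR adjusted p = 0.724), -2.72 ± 1.43 for EHE26 against EHE6 (0.384) and -3.67 ± 1.27 for EHE17 against EHE6 (0.576). None was called by edgeR, while DESeq2 called the last (-3.69, adjusted p = 0.0244). Within the first set the value for EHE17 against EHE6 was -3.78 ± 0.81 (edgeR adjusted p = 0.126). Within the second set, with 1 EHE6 library, that for EHE26 against EHE6 was 1.65, the opposite sign from the comparison over all libraries.

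The stretch of 250 bases before the start of Acta2 is shown because this promoter is the classic example of a CArG box, the site of serum response factor (SRF), which drives contractile genes with the cofactors myocardin, MRTF-A and MRTF-B. That of Cnn1 is shown beside it as the gene whose pattern over the 8 libraries lay nearest to Acta2 among the 10. Cnn1 had at most 0.781 CPM in any library, so its pattern rests on few reads. Both are RefSeq windows on GRCm38.p6, written 5′ to 3′ on the strand of the gene, Acta2 at chr19:34255374-34255623 on the minus strand and Cnn1 at chr9:22099003-22099252 on the plus strand. Bases are counted from the RefSeq start, which lies inside the GENCODE gene span given here for each gene. Both windows therefore overlap those spans, that of Acta2 over most of its length. Capitals mark the matches described next.
Acta2: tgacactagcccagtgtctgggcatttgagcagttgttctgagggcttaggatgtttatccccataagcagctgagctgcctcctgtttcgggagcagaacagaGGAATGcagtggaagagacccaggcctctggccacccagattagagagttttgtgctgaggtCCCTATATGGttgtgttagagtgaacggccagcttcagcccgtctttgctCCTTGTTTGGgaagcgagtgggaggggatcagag
Cnn1: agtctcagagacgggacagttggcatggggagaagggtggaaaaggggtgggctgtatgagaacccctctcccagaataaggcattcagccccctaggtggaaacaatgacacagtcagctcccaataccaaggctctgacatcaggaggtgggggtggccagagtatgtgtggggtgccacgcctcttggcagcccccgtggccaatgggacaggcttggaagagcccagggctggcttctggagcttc
RefSeq windows were matched for 6 of the 10 genes, namely Acta2, Cnn1, Cspg4, Rgs5, Notch3 and Pdgfra. The exact CArG box, CC, 6 bases that are A or T, then GG, was found on either strand in 1.47% of 32851 promoter windows and in none of the 6. With exactly 1 G or C among the inner 6 bases, a looser form chosen after the exact search, 7.24% of windows held a match. Acta2 held 2 of these, CCCTATATGG starting at base -84 and CCTTGTTTGG at base -34 before the start, and the other 5 windows held none. The TEAD-type letters GGAATG were in 12.6% of windows and, of the 6, in that of Acta2 alone, at base -146. The matches describe these letters in these windows and nothing more.

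Cnn1 (ENSMUSG00000001349, chromosome 9, 22099216 to 22109630, plus strand) encodes calponin 1, an actin-binding protein of smooth muscle. It had 0.110 CPM in EHE26 replicate 1 and no read in replicate 2, 0.0249 and 0.0886 CPM in EHE17 replicates 1 and 2 and no read in replicate 3, and 0.781, 0.381 and 0.147 CPM in EHE6 replicates 1, 2 and 3. A count of 0 allows up to 0.0658 CPM in EHE26 replicate 2 and 0.0602 CPM in EHE17 replicate 3 (3 reads, counting error only). Every EHE6 library was above every library of the other 2 lines, and no comparison was called. Cnn1 was -2.91 ± 1.63 in EHE26 against EHE6 (adjusted p = 0.415) and -3.39 ± 1.40 in EHE17 against EHE6 (0.694) on the log2 scale.

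Myh11 (ENSMUSG00000018830, chromosome 16, 14194535 to 14291372, minus strand) encodes smooth muscle myosin heavy chain, the most specific marker of mature smooth muscle. It had 0.442 and 0.263 CPM in EHE26, 1.03, 0.852 and 0 in EHE17, and 1.14, 1.26 and 0.126 in EHE6, in replicate order. The low libraries were those of the second set in all 3 lines, and the lines overlapped. Its log2 fold change was -0.84 ± 1.58 in EHE26 against EHE17 (adjusted p = 0.811) and -1.26 ± 1.60 in EHE26 against EHE6 (0.759), and with the set as a term both turned positive, at 3.16 and 2.23, uncalled. Tagln (ENSMUSG00000032085, chromosome 9, 45929619 to 45936058, minus strand) encodes transgelin, an actin-binding protein of smooth muscle. It had 1.43 and 0.373 CPM in EHE26, 0.112, 0.620 and 0.0401 in EHE17, and 0.700, 0.691 and 0.210 in EHE6, with overlap in every pair. Its span overlaps that of Pcsk7 on the other strand, a gene with up to 5194 reads in a library, and the strand setting of the counting is not given, so the few Tagln reads are uncertain.

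Of 16 further contractile genes, all tested, only Ppp1r12b was called. Ppp1r12b, a regulatory subunit of myosin phosphatase, had 108 and 147 CPM in EHE26, 21.2, 19.4 and 14.0 in EHE17, and 26.3, 41.3 and 25.7 in EHE6. Both EHE26 libraries were above all others, and the log2 fold change was 2.81 ± 0.32 in EHE26 against EHE17 (adjusted p = 0.0107) and 2.04 ± 0.32 in EHE26 against EHE6 (0.0255). Leaving out a library ended the call in EHE26 against EHE17 for EHE17 replicate 1 or 2 or EHE26 replicate 2. In EHE26 against EHE6 the call ended without EHE6 replicate 1, EHE17 replicate 1 or 2 or either EHE26 library. A fit of EHE26 and EHE6 alone also ended it (edgeR adjusted p = 0.0789). Within the second set, with 1 EHE6 library, the log2 fold change was 2.31. The median of the 16 was 0.22 in EHE26 against EHE17, -0.25 in EHE26 against EHE6 and -0.55 in EHE17 against EHE6, beside -0.11, -0.11 and -0.03 over all tested genes. Myl9, the regulatory light chain of smooth muscle and non-muscle myosin, had 12.8 and 4.85 CPM in EHE26, 8.50, 17.6 and 1.65 in EHE17, and 160, 91.9 and 3.55 in EHE6. It was high where Acta2 was high and low in EHE6 replicate 3. Srf itself had 52.3 to 56.5 CPM in EHE26, 46.0 to 92.3 in EHE17 and 62.8 to 99.9 in EHE6, a far narrower spread. Myocd, the gene of myocardin, had at most 0.0847 CPM in any library and was not tested, and of Srf, Mrtfa and Mrtfb none was called. Mrtfa had 45.9 to 55.0 CPM in EHE26, 30.2 to 61.8 in EHE17 and 61.4 to 98.2 in EHE6, and Mrtfb 27.0 to 27.5, 14.9 to 29.8 and 18.3 to 53.1 CPM in that order of lines. Des, the muscle intermediate filament gene, reached at most 1.10 CPM in any library.

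Cspg4 (ENSMUSG00000032911, chromosome 9, 56865033 to 56899870, plus strand) encodes the proteoglycan NG2, a surface marker of pericytes. It had 18.5 and 24.5 CPM in EHE26, 0.422, 0.432 and 0.0803 in EHE17, and 0.391, 0.607 and 2.02 in EHE6. Both EHE26 libraries were above all libraries of the other lines. The log2 fold change was 6.08 ± 0.95 in EHE26 against EHE17, which was called (edgeR adjusted p = 0.0323), and 4.43 ± 0.88 in EHE26 against EHE6, which missed the threshold (0.0661) but passed it without EHE6 replicate 3 (0.00941) or EHE17 replicate 3 (0.0374). The call in EHE26 against EHE17 ended without EHE6 replicate 2 (adjusted p = 0.0562), EHE17 replicate 1, 2 or 3 (0.159, 0.152 and 0.0515) or EHE26 replicate 1 or 2 (0.122 and 0.160), and with the set as a term (5.57, adjusted p = 0.0742). The fold change stayed between 5.65 and 6.38 when a library was left out. Within the second set Cspg4 was higher in EHE26 by 8.02 against EHE17 and by 3.41 against EHE6, with 1 library each of EHE17 and EHE6.

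Rgs5 (ENSMUSG00000026678, chromosome 1, 169655501 to 169695813, plus strand) encodes a regulator of G protein signalling that is abundant in pericytes. EHE26 replicates had 7.30 and 67.5 CPM, EHE17 replicates 4.41, 4.15 and 0.221 CPM, and EHE6 replicates 8.23, 9.92 and 183 CPM. The range within EHE6 was wider than the gap between any 2 line means. EHE17 was lower than each other line in every library, yet neither log2 fold change was called: 3.67 ± 1.64 for EHE26 against EHE17 (adjusted p = 0.310) and -4.51 ± 1.64 for EHE17 against EHE6 (0.602). Notch3 (ENSMUSG00000038146, chromosome 17, 32120820 to 32166852, minus strand), the Notch receptor of arterial smooth muscle and pericytes, had 4.23 and 2.98 CPM in EHE26, 1.27, 0.908 and 0.281 in EHE17, and 0.687, 0.903 and 2.29 in EHE6. Both EHE26 libraries were above all others, with uncalled log2 fold changes of 2.13 ± 0.79 against EHE17 (adjusted p = 0.253) and 1.48 ± 0.78 against EHE6 (0.386). Among 12 other Notch ligands, receptors and targets none was called in any comparison. Dll4, an endothelial Notch ligand, had 12.4 and 1.45 CPM in EHE26, 234, 333 and 50.1 in EHE17, and 266, 361 and 3.22 in EHE6. Jag1, the ligand that engages Notch3 on mural cells, had 47.1 and 52.8 CPM in EHE26, 89.9, 41.6 and 42.8 in EHE17, and 125, 163 and 11.4 in EHE6, so both ligands were lowest in EHE6 in its replicate 3. Heyl, a Notch target of mural cells, reached at most 1.73 CPM.

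Of 13 other pericyte genes 10 were tested and only Ebf1, a transcription factor of stromal and B cells, was called. It had 0.110 and 0.0877 CPM in EHE26, 0.795, 1.16 and 1.16 in EHE17, and 7.50, 6.34 and 57.3 in EHE6. The 3 lines did not overlap, and Ebf1 was lower in EHE26 than in EHE6 by a log2 fold change of -7.87 ± 1.34 (adjusted p = 0.0375). That call ended without EHE6 replicate 1, any EHE17 replicate or either EHE26 library (highest adjusted p 0.299), or with these 2 lines alone (0.137). The channel genes Kcnj8 and Abcc9 encode both parts of the vascular potassium channel and are neighbours on chromosome 6. They split by set within EHE17 and within EHE6, and EHE26 has libraries in the second set only. Kcnj8 had 2.04 and 0.0439 CPM in EHE26, 120, 250 and 1.16 in EHE17, and 78.7, 83.1 and 1.22 in EHE6. Abcc9 had 0.184 and 0.0877 CPM in EHE26, 101, 154 and 0.341 in EHE17, and 54.8, 55.7 and 0.294 in EHE6. Both were high in EHE17 and EHE6 replicates 1 and 2 alone. The median of the 10 tested pericyte genes was -2.27 in EHE26 against EHE17, -3.14 in EHE26 against EHE6 and -0.74 in EHE17 against EHE6. Over all tested genes it was -0.11, -0.11 and -0.03 in that order. Vtn had no read in EHE26, and with it set to 3 reads in the shallowest library the EHE26 against EHE6 median was -3.08. Replicate 3 against the mean of replicates 1 and 2 had a median of -1.97 in EHE17 and -0.22 in EHE6 for these genes.

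Cd248 (ENSMUSG00000056481, chromosome 19, 5068078 to 5070682, plus strand) encodes endosialin, a surface glycoprotein of tumour pericytes and stromal fibroblasts. EHE26 replicates 1 and 2 had 22.2 and 19.1 CPM, EHE17 replicates 1, 2 and 3 had 0.969, 0.985 and 2.17 CPM, and EHE6 replicates 1, 2 and 3 had 14.1, 19.0 and 28.6 CPM. All EHE17 libraries were below all libraries of EHE26 and EHE6, and the libraries of EHE26 lay inside the range of EHE6. The means were 20.6 ± 2.24 CPM in EHE26 (SD, n = 2), 1.37 ± 0.687 CPM in EHE17 (n = 3) and 20.5 ± 7.36 CPM in EHE6 (n = 3). Cd248 was higher in EHE26 than in EHE17 by 3.91 ± 0.49 on the log2 scale (edgeR adjusted p = 0.0138) and lower in EHE17 than in EHE6, at -3.91 ± 0.47 (0.0367). In EHE26 against EHE6 it was 0.01 ± 0.47, with a 95% interval of -1.07 to 1.09 (adjusted p = 0.996). Of the 10 genes, Cd248 alone was called in EHE17 against EHE6 within the first set (-4.07 ± 0.35, edgeR adjusted p = 0.0162). Within the second set it was -3.72 in EHE17 against EHE6 and 3.25 in EHE26 against EHE17. There EHE17 and EHE6 have 1 library each, so only the size of the change is given. The sets were defined from these same data. With the set as a term the adjusted p was 0.00287 for EHE17 against EHE6 and 0.0109 for EHE26 against EHE17. Leaving out a library kept EHE17 against EHE6 between -4.39 and -3.58, but the adjusted p passed the threshold only without EHE17 replicate 3 (0.0256) or EHE6 replicate 3 (0.0348) and was 0.198 at most. It missed without either EHE26 library, either of EHE17 replicates 1 and 2 or either of EHE6 replicates 1 and 2, and with EHE17 and EHE6 alone in the fit (0.120). EHE26 against EHE17 missed without either EHE26 library or either of EHE17 replicates 1 and 2, with a highest adjusted p of 0.1003.

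Pdgfrb (ENSMUSG00000024620), the receptor through which PDGF-B recruits pericytes, had 63.0 and 28.9 CPM in EHE26, 1.75, 2.14 and 0.401 in EHE17, and 1.41, 1.57 and 22.0 in EHE6. Both EHE26 libraries were above all others, and EHE6 replicate 3 stood next to them, far from the other EHE6 libraries. The log2 fold change was 5.0 ± 1.32 in EHE26 against EHE17 (adjusted p = 0.140) and 2.47 ± 1.21 in EHE26 against EHE6 (0.350). Without EHE6 replicate 3 both were called, at 4.99 (adjusted p = 0.00684) and 4.96 (0.0151).

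Pdgfra (ENSMUSG00000029231, chromosome 5, 75152292 to 75198215, plus strand), the receptor of fibroblasts and other mesenchymal cells, had 77.5 and 59.8 CPM in EHE26, 1.76, 1.70 and 1.14 in EHE17, and 3.87, 5.21 and 252 in EHE6. EHE17 was below both other lines in every library, and EHE6 replicate 3 was the highest of the 8 libraries while EHE6 replicates 1 and 2 were far below EHE26. The log2 fold change was 5.48 ± 1.65 in EHE26 against EHE17 (adjusted p = 0.178), -0.34 ± 1.49 in EHE26 against EHE6 (0.944) and -5.82 ± 1.63 in EHE17 against EHE6 (0.408). Without EHE6 replicate 3, EHE26 was called higher than EHE17 (5.47 ± 0.34, adjusted p = 0.000886) and higher than EHE6 (3.93 ± 0.37, 0.00179). Within the second set EHE26 against EHE6 was -1.88, the opposite sign from the fit without EHE6 replicate 3, and EHE26 against EHE17 was 5.91. With the set as a term neither was called, at -0.93 (edgeR adjusted p = 0.832) and 1.97 (0.749).

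None of the 4 PDGF ligand genes was called in any comparison. Pdgfa, the ligand gene of PDGFR-alpha, had 22.8 and 70.8 CPM in EHE26, 5.37, 3.93 and 3.39 in EHE17, and 9.35, 9.07 and 38.8 in EHE6, highest in the libraries where Pdgfra was high. Pdgfb, the endothelial ligand gene for Pdgfrb, was lowest in EHE26, with 8.78 and 2.46 CPM in EHE26, 128, 169 and 28.0 in EHE17, and 256, 223 and 38.4 in EHE6. Pdgfc, also a ligand gene of PDGFR-alpha, had 5.94 and 10.2 CPM in EHE26, 1.32, 1.28 and 1.04 in EHE17, and 1.75, 1.86 and 11.1 in EHE6, high in the same libraries as Pdgfa. Pdgfd, a ligand gene of PDGFR-beta, had at most 0.0439 CPM in EHE26, 1.57 to 6.70 in EHE17 and 0.0420 to 6.04 in EHE6. In EHE26 against EHE17 Pdgfa and Pdgfb had log2 fold changes of 3.47 ± 0.75 (adjusted p = 0.0858) and -4.27 ± 1.15 (0.146). Of 18 fibroblast genes 16 were tested and none was called. The collagen gene Col1a1 was at 0.972 RPKM in EHE26, 0.657 in EHE17 and 0.777 in EHE6, low beside Pecam1 in each line. The fibroblast genes summed to 757 to 1533 CPM in EHE26, 1153 to 1882 in EHE17 and 460 to 505 in EHE6. In this sum EHE17 was above EHE6, where the sum of the 10 marker genes was below it. The median log2 fold change of the 16 tested fibroblast genes in EHE17 against EHE6 was -0.36, with 9 negative and 7 positive. Thy1, a surface glycoprotein of fibroblasts and other cells, made up most of the sum in EHE17. It had 933, 1347 and 1767 CPM in EHE17 replicates 1, 2 and 3. Its mean was 1349 ± 417 CPM in EHE17 and 252 ± 212 CPM in EHE6 (SD, n = 3 each). Col3a1, a fibrillar collagen gene, averaged 113 ± 86.4 CPM in EHE17 and 8.62 ± 2.04 CPM in EHE6. Neither of these genes, picked out after their values were seen, was called, though EHE17 and EHE6 did not overlap in them. Prrx1, a mesenchymal transcription factor, had 13.2 and 19.8 CPM in EHE26, 0.224, 0.576 and 0.281 in EHE17, and 0.471, 0.494 and 39.7 in EHE6, high in the same 3 libraries as Pdgfra; it was singled out after its values were seen. Dcn, the matrix proteoglycan decorin, had 206 and 18.0 CPM in EHE26, 46.7, 43.2 and 8.71 in EHE17, and 15.0, 22.5 and 0.966 in EHE6. It was lowest in EHE6 replicate 3, where Pdgfra was highest, but highest in EHE26 replicate 1, where Pdgfra was also high.

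In EHE26 against EHE17, 2 of the 10 genes were called higher (Cspg4 and Cd248) and none lower, where 0.890% of all tested genes were called higher and 0.185% lower. The median log2 fold change of the 10 was 2.90, beside -0.11 over all tested genes, and 9 were positive. The libraries of the lines did not overlap for 6 of them, Cspg4, Rgs5, Notch3, Cd248, Pdgfrb and Pdgfra, all higher in EHE26. Over all tested genes 39.0% did not overlap, and 18.7% did so with EHE26 higher. In EHE26 against EHE6 none of the 10 was called by edgeR, 1 had an unadjusted p under 0.05 and DESeq2 called 1 (Cspg4, adjusted p 8.84e-06), beside 1.10% of all genes called higher by edgeR, 0.159% called lower and 15.9% with an unadjusted p under 0.05. The median was -0.17, beside -0.11 over all genes, and 4 did not overlap, with Cspg4, Notch3 and Pdgfrb higher and Cnn1 lower in EHE26, beside 31.3% of all genes, 16.0% higher and 15.3% lower in EHE26. In EHE17 against EHE6, Cd248 alone was called lower and none higher, beside 0.0636% of all genes called lower and 0.0794% called higher. All 10 log2 fold changes were negative, with a median of -2.96 beside -0.03 over all genes. With replicates 1 and 2 of EHE17 and EHE6 alone, Notch3 and Pdgfrb were positive, at 0.46 and 0.40. There Cspg4, Myh11, Tagln, Rgs5 and Pdgfra were at -0.21, -0.34, -0.90, -1.07 and -1.37. Acta2, Cnn1 and Cd248 were at -3.78, -3.29 and -4.07. Over all libraries 4 of the 10 did not overlap (Cnn1, Rgs5, Cd248 and Pdgfra), all lower in EHE17. Over all genes 12.2% did not overlap, and 4.94% did so with EHE17 lower. Each pair of these comparisons shares a line, so their values are not independent of each other.

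**Figure D2:**
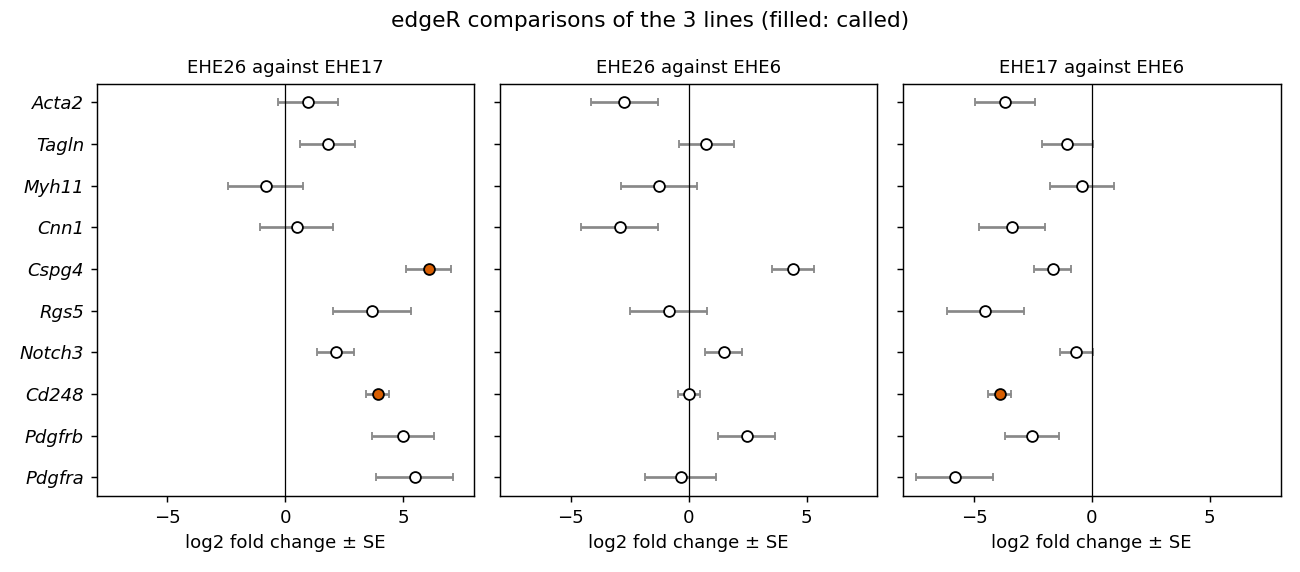
Log2 fold change ± SE from edgeR for the 10 genes in the 3 comparisons of lines; filled points were called. Cspg4 and Cd248 are filled in EHE26 against EHE17 at 6.08 and 3.91, Cd248 in EHE17 against EHE6 at -3.91, and no point is filled in EHE26 against EHE6.

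Library by library, the 10 genes made different mixtures. Their summed level was 234 to 259 CPM in EHE26, 11.5 to 66.1 CPM in EHE17 and 307 to 691 CPM in EHE6. Per kilobase the sum was 61.7 and 50.04 RPKM in EHE26, 7.98, 27.2 and 4.41 RPKM in EHE17, and 309, 133 and 88.0 RPKM in EHE6, in replicate order. Of the RPKM sum Acta2 gave 47.7% in EHE26 replicate 1, while in EHE26 replicate 2 Rgs5 gave 29.7% and Acta2 28.0%. In EHE17 Acta2 led in every library, with 72.0%, 91.0% and 74.4%. In EHE6 it gave 97.2% and 91.7% in replicates 1 and 2 but 7.83% in replicate 3, where Rgs5 gave 45.9% and Pdgfra 28.6%. EHE6 replicate 3 was thus the library in which Acta2 had its smallest share. Set against the mean of replicates 1 and 2 on the log2 CPM scale, EHE17 replicate 3 differed by -0.59 for Pdgfra, -4.10 for Rgs5, -2.18 for Pdgfrb, -2.04 for Cspg4 and -1.86 for Acta2. EHE6 replicate 3 differed by 5.80 for Pdgfra, 4.34 for Rgs5, 3.86 for Pdgfrb and 1.98 for Cspg4, the opposite direction, and by -4.79 for Acta2. Cd248 was higher in replicate 3 of both lines, by 1.12 in EHE17 and 0.80 in EHE6.

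**Figure D3:**
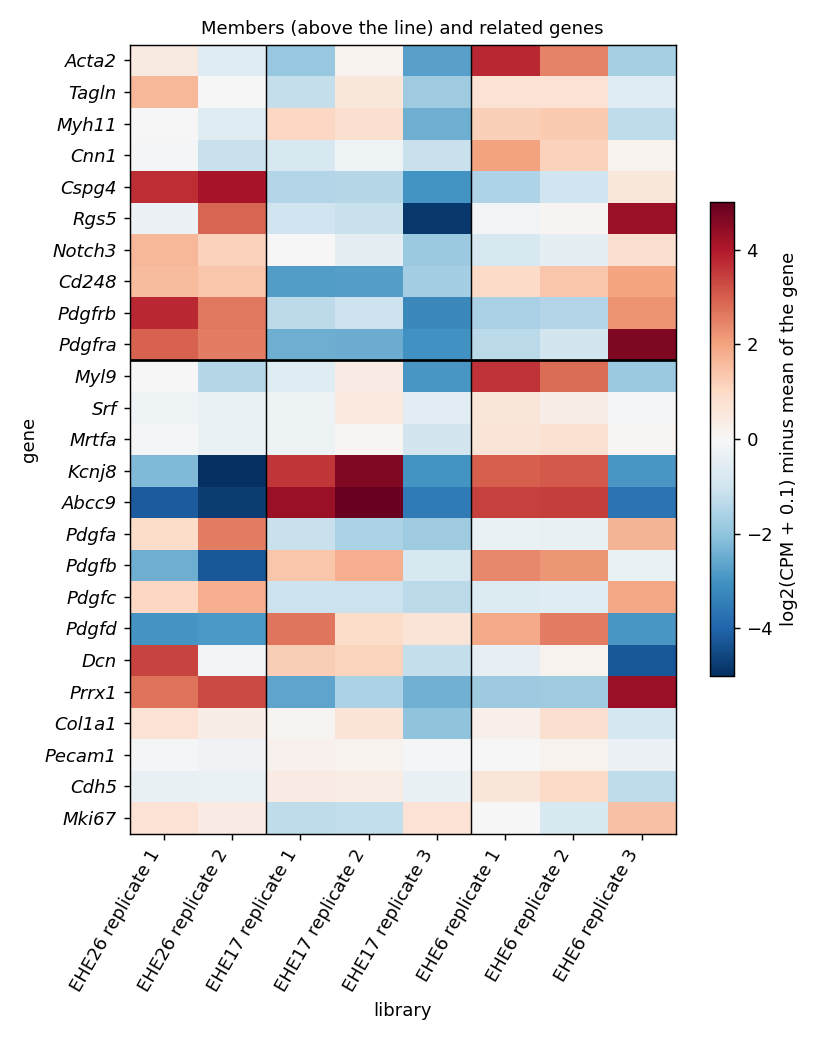
Log2(CPM + 0.1) minus the mean of the gene over 8 libraries, on a colour scale from -5 (blue) to 5 (red), for the 10 genes above the line and related genes under it. EHE6 replicate 3 is red for Rgs5, Pdgfrb, Pdgfra and Prrx1, as at 183, 22.0, 252 and 39.7 CPM, and blue for Acta2, Myl9, Kcnj8 and Abcc9.

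Marker lists of other cells also differed between replicates of a line, not always in the direction of the 10 genes. For the 10 genes the median of replicate 3 against the mean of replicates 1 and 2 was -1.95 in EHE17 and 1.15 in EHE6. The pan-endothelial list of 18 genes, all tested, summed to 5295 to 6619 CPM in EHE26, 8659 to 16216 in EHE17 and 3775 to 17610 in EHE6, with its lowest sum in EHE6 replicate 3, and 1 of the 18, Sox17, had no read in EHE26. Its median in replicate 3 against the mean of replicates 1 and 2 was -0.93 in EHE17 and -3.12 in EHE6. Proliferation genes, 12 of 12 tested, summed to 1691 to 1856 CPM in EHE26, 470 to 2147 in EHE17 and 636 to 3349 in EHE6, and were higher by 2.0 and 1.94 in replicate 3 of EHE17 and EHE6. Mki67, their most used marker, had 183 to 226 CPM in EHE26, 56.2 to 224 in EHE17 and 80.3 to 378 in EHE6. The 7 epithelial genes summed to 3.09 to 28.6 CPM in EHE26, 1.08 to 30.2 in EHE17 and 23.4 to 89.8 in EHE6, with Krt5 and Cldn4 at 0 in EHE26. The highest of these sums came from Krt18, at 89.2 CPM in EHE6 replicate 3, while the list median in replicate 3 against replicates 1 and 2 was -3.54 in EHE17 and -4.14 in EHE6. Across lines the fitted epithelial median was -6.96 in EHE26 against EHE17 and -7.34 in EHE26 against EHE6, or -2.20 and -4.80 with the genes at 0 set to 3 reads in the shallowest library. Epcam, the defining epithelial marker, had no read in EHE26 replicate 2, EHE17 replicate 3 and EHE6 replicate 3. The 8 leukocyte genes, 6 of them tested, summed to 35.8 to 42.3 CPM in EHE26, 25.7 to 68.3 in EHE17 and 18.2 to 28.6 in EHE6, with Ptprc at most 1.49 CPM and Cd3e at 0 in EHE26. No gene of these 4 lists was called in any comparison. Their part in the results on the 10 genes was not tested.

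**Figure D4:**
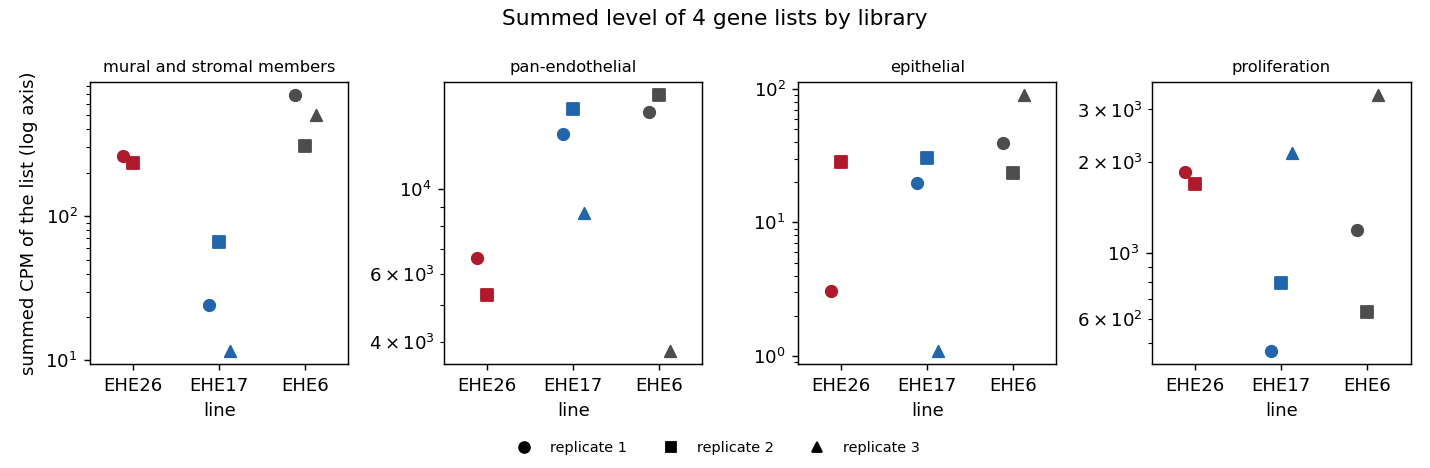
Summed CPM of 4 gene lists in each library on log axes, by line, with replicates shown by shape. The 10 mural and stromal genes are lowest in EHE17, at 11.5 to 66.1 CPM, while the pan-endothelial sum is lowest in EHE6 replicate 3, at 3775 CPM.

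Likeness of pattern was measured as the root mean square difference of log2 CPM over the 8 libraries after centring each gene, with smaller values for more similar patterns. Among the 10 genes the nearest pair was Cspg4 and Pdgfrb (0.833), then Acta2 and Cnn1 (1.09) and Pdgfrb and Pdgfra (1.13), and the farthest was Acta2 and Pdgfra (3.58). All of the 10 genes had an SD of log2 CPM above 1 over the 8 libraries. For each, the nearest tested genes were sought, leaving out genes with placeholder names (such as Gm and Rik), Xist and Y-linked genes. The nearest to Acta2 was Myl9 (0.595), to Cspg4 Lgi2 (0.470), to Rgs5 Atp2a3 (0.639) and to Notch3 Pcdhb21 (0.278). Nearest to Cd248 was Ltbp1 (0.537), to Pdgfrb Edil3 (0.363) and to Pdgfra Lhx9 (0.403). The genes second in likeness were Col28a1 for Acta2 (0.862), Pcolce for Cspg4 (0.507), Plek2 for Rgs5 (0.661), Foxl1 for Notch3 (0.315), Frk for Cd248 (0.589), Fam131b for Pdgfrb (0.519) and Ndst3 for Pdgfra (0.592). Nearest to Tagln was Hopx (0.472), to Myh11 C1qtnf4 (0.260) and to Cnn1 Maats1 (0.403), followed by Igfbp6 (0.485), Fjx1 (0.443) and Akr1c12 (0.614). The contractile gene Acta2 and the mesenchymal receptor gene Pdgfra thus lay at opposite ends of the 10. Libraries, sets and depth are shared by all these values. Some of the genes had few reads, such as Cnn1 and Foxl1 (at most 0.241 CPM), so their distances rest partly on counts near 0.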

How the data were processed

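The data were raw counts per Ensembl gene, deposited by the authors, for 8 libraries. Per the labels' protocols, RNA came from the RNeasy Mini kit and the NEBNext Ultra II kit was used on polyA-selected RNA. Per the submitters' processing notes, reads were aligned with HISAT2 to mm10. The counting tool, annotation and strand setting are not given in the sources used here. GENCODE M21 (GRCm38) gave symbols for 55141 of 55401 identifiers, positions and merged exon lengths, and RefSeq gave promoters.

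Counts were filtered with filterByExpr by line (18882 genes), TMM scaled and fitted over the 8 libraries by edgeR 4.0.16 (R 4.3.3), line being the only term (5 residual degrees of freedom), with Benjamini-Hochberg adjustment over all genes. The scripts were tested on simulated data. DESeq2 1.42.0, other scalings, no filter, a replicate block, the set as a term and leaving out libraries were alternatives, and the second set alone was added after seeing the data. Same-numbered EHE17 and EHE6 libraries departed together from their line means (correlations 0.13, 0.18 and 0.57 across genes), so the block was read beside this comparison; EHE17 replicate 1 correlated more with EHE6 replicate 2 (0.62) and EHE17 replicate 2 with EHE6 replicate 1 (0.54), and the labels name no shared source; the block changed no call among the 10 genes there (Cd248 -3.95, adjusted p = 0.0135). The 10 genes and all lists were chosen with earlier results of these data known. Named genes were the 10 genes, called members of the other lists (up to 4 per comparison), a chosen group of pathway genes given whatever their values, and the 2 genes nearest in pattern to each of the 10. Intervals come from the edgeR fit and include its estimate of the spread between libraries. The floor of 3 reads covers counting error only.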

Additional observations from a re-analysis of the deposited data

How the results depend on the processing

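Over all tested genes edgeR called 203 in EHE26 against EHE17, 237 in EHE26 against EHE6 and 27 in EHE17 against EHE6, and of the 10 genes 2, 0 and 1. RLE and total count scaling kept these counts within 1.5 times. With no low-count filter the counts were 745 (478 higher, 267 lower), 547 (370 and 177) and 142 (92 and 50), and 4, 1 and 2 of the 10. DESeq2 called 1685 (693 and 992), 1562 (668 and 894) and 390 (240 and 150), and 2, 1 and 2 of the 10, with no adjusted p for Rgs5, Pdgfrb, Pdgfra and Ebf1. The replicate block gave 1860 (918 and 942), 1459 (674 and 785) and 33, and 4, 1 and 1 of the 10; EHE26 numbers did not pair with the other lines. The set as a term gave 319, 356 and 102, and 1, 0 and 1. With only the lines compared, 764 (472 and 292), 126 and 7 were called, and 4, 0 and 0. Replicates 1 and 2 of EHE17 and EHE6 gave 97, and the second set alone 612 (416 and 196), 334 and 473, and 4, 2 and 4. Leaving out a library gave 2 to 1415, 65 to 1632 and 1 to 54, and 0 to 4, 0 to 3 and 0 to 1 of the 10; the highest in both EHE26 comparisons came without EHE6 replicate 3.

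Some uncalled log2 fold changes turned sign. Cd248 in EHE26 against EHE6 was -0.0157 with RLE, -0.0801 with total counts, -0.0059 with no filter, -0.0155 with DESeq2, -0.59 with the set, -0.0015 with only the lines compared, -0.47 in the second set and -0.20 to 0.33 without a library. There the block gave Rgs5 0.67 and Pdgfra 2.996 (without a library -3.22 to 2.04 and -0.91 to 3.93), the set gave Acta2 0.44 and Myh11 2.23, the second set 1.65 and 1.47, and Tagln ran from -0.52 to 1.44 without a library. In EHE26 against EHE17 the block gave Acta2 -0.17 and Cnn1 -0.17 (without a library -4.47 to 1.87), and Myh11 was 3.16 with the set and 7.13 in the second set. In EHE17 against EHE6, replicates 1 and 2 alone gave Notch3 0.46 and Pdgfrb 0.40, and without a library Notch3 ran from -1.11 to 0.0631 and Myh11 from -0.97 to 0.16. The cause was not tested. Mean levels of the 10 genes without TMM scaling moved by less than the spread between replicates in all 30 cases; RPKM levels are another unit and were not set against CPM. Tagln, Myh11 and Cnn1 rest on few reads, so their values carry more counting error.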
